A study of Nothobranchius furzeri with 20 samples.

Results

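In the brain of male turquoise killifish, 118 of 26739 gene identifiers met a minimum mean level and an order of ages. All were higher at 10 than at 14 weeks of age in every library, and than at 5 weeks in at least 4 of 5. They were chosen by their measured levels in CPM, the read count scaled to the total count of its library. A gene qualified when its mean over the 20 libraries was at least 1 CPM, all 5 libraries of 14 weeks lay below all 5 of 10 weeks, and at least 4 of the 5 libraries of 5 weeks lay below all 5 of 10 weeks. Genes whose 14-week and 5-week libraries were fully apart were to be left out, but none of the genes that met the other parts was of that kind. They are called the 10-week-high genes here, because the levels at 7 weeks, which the choice did not use for the order, overlapped with those at 10 weeks in part of them.

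The libraries were made from total RNA of the brain of male fish of the strain GRZ, with 5 libraries each at 5, 7, 10 and 14 weeks. No group received a treatment according to the labels, and age was the only stated difference. The labels do not say whether a library is 1 fish or several. The p-values therefore judge differences against the spread between these libraries, which may be partly technical. The files give gene identifiers without names, and 0 of them matched the RefSeq table of this species, so no gene is given a symbol or a function, the brain could not be checked against marker genes, and no sequence could be assigned to a gene.

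The turquoise killifish is a fish of seasonal African ponds that matures and ages fast, and GRZ is an inbred strain with an especially short life, which is why it is used to study ageing. Its brain keeps dividing progenitor cells and goes on growing in adult life, while neurons, glia, blood vessels and immune cells each contribute RNA to a whole-brain extract. In such bulk samples, fewer cells of a type and less RNA per cell cannot be told apart.

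Of the 17994 genes with a mean of at least 1 CPM, 181 (1.01%) had all 14-week libraries below all 10-week libraries, and 2340 (13.0%) had at least 4 of the 5-week libraries below all 10-week libraries. Both parts held for 118 genes (0.656%). In 66 of them all 5 libraries of 5 weeks lay below the 10-week libraries, which was so for 5.6% of all genes, and in the other 52 a single 5-week library did not. That library was replicate 2 for 31 genes, replicate 5 for 11, replicate 4 for 7 and replicate 1 for 3.

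The separation was narrow for many of these genes. The lowest 10-week library exceeded the highest 14-week library by a median factor of 1.04 in CPM, with a range of 1.0005 to 1.28. Just outside, the nearest gene that met the other parts had a factor of 0.9999, and 2052 genes met everything except the 14-week part. On the 5-week side the factor, taken against the fourth lowest 5-week library, had a median of 1.14 and ran from 1.002 to 1.91, while the nearest gene outside stood at 0.998. The lowest mean level inside was 1.11 CPM, and the nearest gene outside stood at 0.854 CPM. With 10-week replicate 4, 10-week replicate 5 or 14-week replicate 4 left out of the choice, 255, 209 or 218 genes would have qualified. Leaving out a library of 10 or 14 weeks can only loosen the order asked for, so a longer list is in part fixed in advance.

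In terms of size, the median of the 10-week libraries was 1.42 times that of the 5-week libraries at the middle of the list, with a range of 1.06 to 2.83 and 47 genes at 1.5 or more. Against the 14-week median it was 1.26 times, with a range of 1.07 to 2.20 and 10 genes at 1.5 or more. These ratios describe values that chose the genes. In 93 of the 118 genes the median of the 14-week libraries still lay above that of the 5-week libraries, which was so for 52.6% of all genes.

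Nfu_g_1_020007 had the largest fitted difference between 10 and 5 weeks among members with a mean of at least 5 CPM. Its 5-week libraries held 7.58, 11.8, 10.7, 7.42 and 5.00 CPM, and its 10-week libraries 23.8, 21.5, 28.7, 20.3 and 21.3 CPM, in order of replicate. The 14-week libraries held 14.2, 17.3, 17.2, 14.6 and 5.79 CPM. All 10-week libraries stood above all others, and replicate 5 was the lowest at 14 weeks. The 7-week libraries held 14.1, 15.9, 2.08, 15.3 and 15.98 CPM. Of these, 4 lay within the range of the 14-week libraries, and replicate 3 was below every other library of the study. The 5-week mean was 8.49 ± 2.74 CPM and the 10-week mean 23.12 ± 3.35 CPM, against 12.7 ± 5.98 CPM for the 7-week and 13.8 ± 4.71 CPM for the 14-week libraries (SD, n = 5). Its log2 fold change was 1.45 ± 0.39 from 5 to 10 weeks and -0.77 ± 0.38 from 10 to 14 weeks (standard error).

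Nfu_g_1_013141, the gene with the next largest difference between 10 and 5 weeks, ran lower overall. Its 5-week libraries held 4.21, 5.59, 3.96, 2.18 and 6.66 CPM, and its 10-week libraries 10.3, 11.5, 11.7, 9.06 and 10.9 CPM. The 7-week libraries held 7.64, 7.65, 1.11, 6.90 and 7.84 CPM, and the 14-week libraries 6.31, 6.55, 6.44, 7.10 and 2.17 CPM. The 10-week libraries overlapped with no other age, and 7-week replicate 3 and 14-week replicate 5 were again far below the rest of their ages. The log2 fold change was 1.31 ± 0.38 from 5 to 10 weeks and -0.92 ± 0.37 from 10 to 14 weeks (standard error).

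Among members with a mean of at least 5 CPM, Nfu_g_1_022606 had the largest fitted difference between 14 and 10 weeks, a log2 fold change of -1.004 ± 0.54 (standard error). The gene was not called, with an adjusted p of 0.907 by edgeR, and leaving out 1 library gave -1.17 to -0.71. Its 10-week libraries held 11.4, 11.2, 11.5, 10.3 and 12.5 CPM, and its 14-week libraries 7.43, 8.34, 8.13, 4.46 and 0.465 CPM. The 5-week libraries held 3.57, 5.11, 6.29, 5.42 and 4.08 CPM, and the 7-week libraries 7.69, 9.60, 0.508, 6.70 and 6.89 CPM. All 10-week libraries lay above all others, and 7-week replicate 3 and 14-week replicate 5 were the lowest of the 20. The 14-week replicate 5 held 9 reads of this gene and the 7-week replicate 3 held 11, so both values rest on few counts.

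Nfu_g_1_010894 came after Nfu_g_1_022606 and Nfu_g_1_013141 in its difference between 14 and 10 weeks, with a log2 fold change of -0.85 ± 0.22 (standard error). Leaving out 1 library gave -0.94 to -0.75 for this gene and -1.02 to -0.72 for Nfu_g_1_013141. The order of these genes therefore depends on single libraries. The 10-week libraries of Nfu_g_1_010894 held 61.8, 94.4, 98.2, 77.0 and 57.7 CPM, and its 14-week libraries 54.4, 31.4, 39.4, 44.9 and 50.02 CPM. The 7-week libraries held 41.8, 36.4, 49.2, 27.7 and 38.7 CPM. Here 7-week replicate 3 was the highest of its age rather than the lowest. The 5-week libraries held 25.8, 41.0, 31.97, 39.8 and 73.2 CPM, and replicate 5 was the one 5-week library inside the 10-week range.

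**Figure D1:**
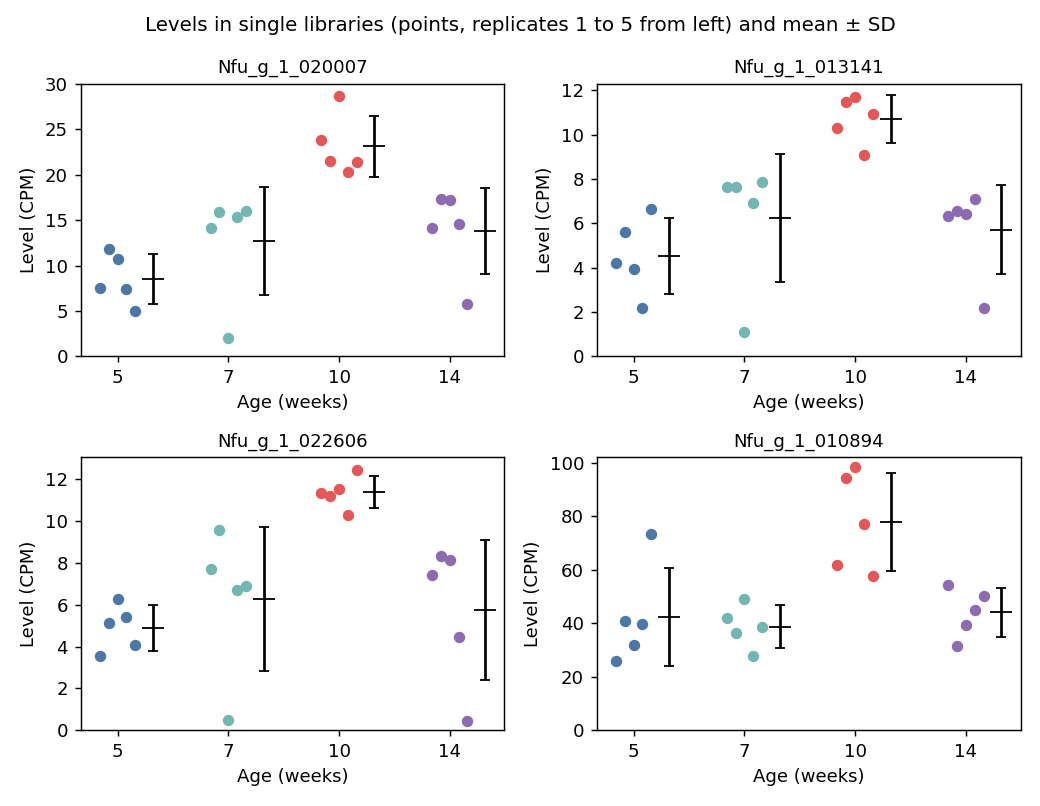
Levels in CPM (y axis, linear, from 0) against age in weeks (x axis) for 4 of the genes; points are single libraries in order of replicate, and the black mark and bar give the mean and SD of 5 libraries. In all but Nfu_g_1_010894, 7-week replicate 3 and 14-week replicate 5 lie far below the other libraries of their ages.

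Placed by level per length, the highest member had a mean of 75.3 RPKM, the read count scaled by gene length and library total. Its 10-week libraries held 304, 324, 320, 315 and 320 CPM, and its 5-week libraries 151, 275, 178, 206 and 47.9 CPM. The 7-week libraries held 265, 343, 10.1, 356 and 363 CPM, and the 14-week libraries 270, 257, 297, 200 and 8.53 CPM. At 7 weeks 3 libraries exceeded every 10-week library, while 7-week replicate 3 and 14-week replicate 5 held less than any other library.

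The longest member, with 21957 bases, varied less. Its libraries ran from 506 to 580 CPM at 10 weeks. The 5-week libraries ran from 342 to 484 CPM and the 14-week libraries from 305 to 504 CPM. At 7 weeks it ran from 302 CPM in replicate 3 to 684 CPM in replicate 2, a span that covers the 10-week range. The shortest member, with 208 bases, held 5.55 to 6.84 CPM at 10 weeks and 4.81 to 5.41 CPM at 14 weeks. These groups are apart by less than the spread within 10 weeks. The member with the lowest mean level held 1.13 to 1.85 CPM at 10 weeks and 0.568 to 1.11 CPM at 14 weeks, and 7-week replicate 3 held 1 read of it.

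Taken over the list, the 10-week libraries differed little among themselves. The coefficient of variation, the SD over the mean of the 5 libraries, had a median over the members of 8.04% at 10 weeks, against 12.3% over all genes. The 14-week libraries gave 15.7% against 14.8%, the 5-week libraries 21.3% against 18.6%, and the 7-week libraries 32.7% against 21.2%. The choice favours genes whose 10-week libraries lie close together, so the value at 10 weeks is a description.

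The median member, on a scale of log2(CPM + 0.5) minus the gene's own 10-week mean, shows how the single libraries lay. The 5-week libraries stood at -0.52, -0.27, -0.52, -0.56 and -0.68, and the 14-week libraries at -0.32, -0.32, -0.28, -0.33 and -0.73. The 7-week libraries stood at -0.17, -0.06, -1.46, -0.10 and -0.05. In 4 of the 7-week libraries the median member was therefore at 0.89 to 0.97 times its 10-week level, and in replicate 3 at 0.36 times. The medians over all genes lay between -0.07 and 0.18 in every library. The members took 0.48% of all counts in 7-week replicate 3 and up to 1.16% in 10-week replicate 3.

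**Figure D2:**
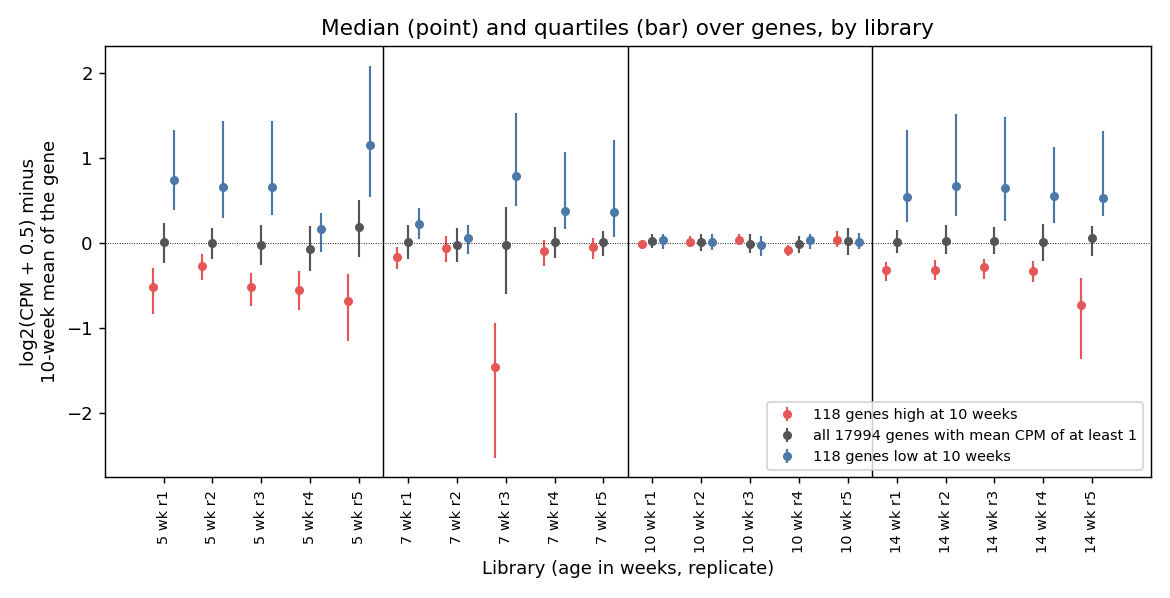
Median and quartiles over genes of log2(CPM + 0.5) minus the gene's 10-week mean (y axis) in each of the 20 libraries (x axis), for the 118 genes, for all 17994 genes with a mean of at least 1 CPM, and for 118 genes that meet the mirrored rule and are low at 10 weeks. The median of the 118 genes stands at -0.17 to -0.05 in 4 of the 7-week libraries and at -1.46 in replicate 3.

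Whether these genes peaked at 10 weeks depended in part on 1 library. The choice of genes kept the youngest and oldest ages low, so in effect only 7 against 10 weeks was open. It also favours high 10-week levels, so the counts are a description. With all libraries, the mean was highest at 10 weeks in 117 of 118 genes, against 24.8% of all genes. Without 7-week replicate 3 it was highest at 10 weeks in 83 and at 7 weeks in 35, against 19.7% and 21.8% of all genes. By medians, which 1 library moves little, the level was highest at 10 weeks in 87 genes and at 7 weeks in 31. Over all genes the shares by medians were 23.8% and 21.5%.

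Gene by gene, the 7-week libraries reached the 10-week range in part of the list. The choice of genes with high 10-week levels lowers these shares, so they are a description. Replicates 1, 2, 4 and 5 were at or above the lowest 10-week library in 48, 70, 64 and 78 of the 118 genes (40.7%, 59.3%, 54.2% and 66.102%), and replicate 3 in 2 (1.69%). Over all genes the shares were 78.9%, 73.9%, 78.7% and 81.4%, and 60.13% for replicate 3. All 5 libraries of 7 weeks lay below all 10-week libraries in 25 genes (21.2%), against 3.43% of all genes. Leaving out replicate 3, the count was again 25, while the share of all genes was 5.5%. At the other end, 32 genes (27.1%) had all 4 of these libraries at or above the lowest 10-week library, against 56.8% of all genes, and the remaining 61 genes had 1 to 3.

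Against the low ages, the 4 libraries other than replicate 3 were high. They lay above every 14-week library in 52 genes (44.1%), against 5.44% of all genes, and above every 5-week library in 52 genes, against 6.19%. The members were chosen for low 14-week and 5-week levels, which raises both shares, so they are a description.

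**Figure D3:**
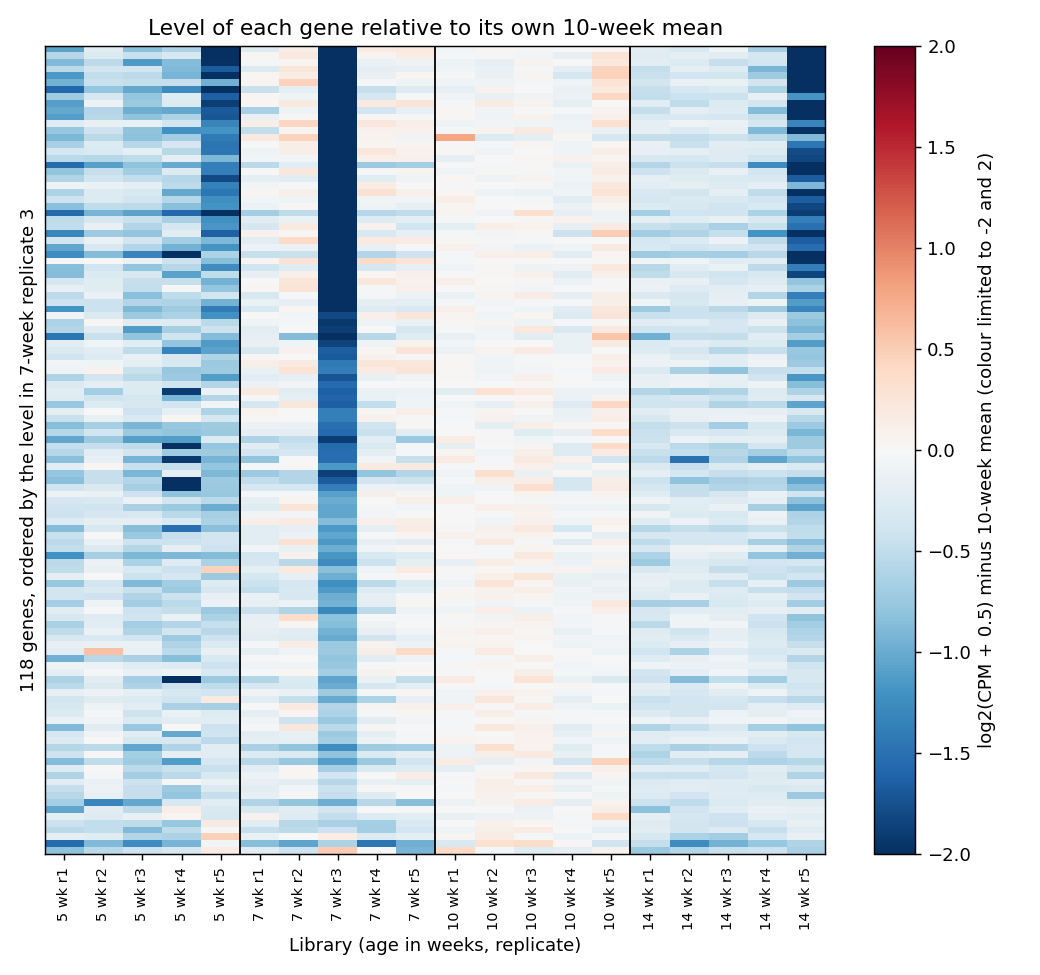
Level of each of the 118 genes (rows, ordered by the deviation of 7-week replicate 3) in each library (columns), as log2(CPM + 0.5) minus the gene's 10-week mean, with the colour limited to -2 and 2. The column of 7-week replicate 3 is the darkest blue, that of 14-week replicate 5 is blue for the same upper rows, and the other 7-week columns are close to the 10-week columns.

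The difference between 10 and 7 weeks was tested with edgeR's quasi-likelihood test over 19474 genes, with Benjamini-Hochberg adjustment and a threshold of 0.05. It shares the 10-week libraries with the choice of genes. All 118 genes were in the test, and 7 of them (5.93%) were called higher at 10 weeks, against 1.14% of all genes tested. None was called lower at 10 weeks, against 1.61% of all genes. The count was 13 by DESeq2, which called 2.31% of all genes. By edgeR it fell to 4 on leaving out 7-week replicate 2 or 10-week replicate 1 or 4, with 0.281% to 0.444% of all genes called. It fell to 2 on leaving out 7-week replicate 4 or 10-week replicate 2 or 3, with 0.153% to 0.25% of all genes called. Of the 118 genes, 24 were higher at 10 weeks with an unadjusted p under 0.05 by edgeR, against 1495 of the 19474 genes tested. The median log2 fold change was 0.27 over the members and 0.02 over all genes.

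Among the 7, the gene with the lowest adjusted p had 6164 bases. Its 7-week libraries held 38.8, 34.7, 25.7, 37.3 and 37.5 CPM, and its 10-week libraries 56.8, 76.3, 64.2, 51.5 and 59.9 CPM. The 14-week libraries held 43.0, 39.0, 40.7, 45.6 and 48.4 CPM, and the 5-week libraries 41.1, 41.8, 29.4, 40.2 and 52.1 CPM. The 7-week libraries lay below all 14-week and all 10-week libraries, and overlapped with the 5-week libraries. The log2 fold change from 7 to 10 weeks was 0.83 ± 0.13 (standard error), with an adjusted p of 0.0055 by edgeR. The adjusted p stayed at or below 0.025 when any of the 20 libraries was left out.

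The next gene, with 4174 bases, held 16.7, 14.6, 11.3, 14.7 and 18.9 CPM at 7 weeks and 27.6, 22.02, 23.9, 19.0 and 34.5 CPM at 10 weeks. Its groups came close to each other but did not overlap. The log2 fold change was 0.73 ± 0.15 (standard error), with an adjusted p of 0.017 by edgeR and of 0.047 at the highest when a library was left out. The next in order, a gene of 3499 bases held 48.7 to 59.8 CPM at 7 weeks and 68.7 to 87.6 CPM at 10 weeks, with no overlap. Its log2 fold change was 0.50 ± 0.10 with an adjusted p of 0.018 by edgeR, and the call was lost without 10-week replicate 2, 10-week replicate 3 or 7-week replicate 4.

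For Nfu_g_1_010894 the log2 fold change from 7 to 10 weeks was 1.01 ± 0.22 (standard error), with an adjusted p of 0.022 by edgeR. The call was lost without 7-week replicate 2 or 4 or 10-week replicate 2 or 3, where the adjusted p by edgeR reached 0.079 at the highest. A gene of 4592 bases held 65.7 to 162 CPM at 7 weeks and 219 to 303 CPM at 10 weeks, with an adjusted p of 0.030 by edgeR. Its call was lost without 5 of the libraries in turn, namely 7-week replicate 4 and 10-week replicates 1, 2, 3 and 4. The other 2 genes called were the weakest, with adjusted p of 0.033 and 0.049 by edgeR, and lost the call without 9 and 17 of the 20 libraries in turn.

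Of the 7 genes called, 5 were also called higher at 10 than at 5 weeks, and 1 was more than 2-fold low in 7-week replicate 3. In 6 of the 7 no 7-week library reached the 10-week range, and in the last 7-week replicate 5 did.

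Between 10 and 5 weeks, 23 of the 118 genes (19.5%) were called higher at 10 weeks by edgeR, against 2.13% of all genes, and none was called lower, against 3.85%. The choice used this contrast, so nothing is read from the count. By edgeR it was 57 without 7-week replicate 3, where 5.21% of all genes were called. It was 15 or fewer without 5-week replicates 1, 3 or 4, 7-week replicate 4, 10-week replicates 1, 2, 3 or 4, or 14-week replicate 1, where 0.459% to 1.5% of all genes were called. The lowest count, 5, and the lowest share went together, without 10-week replicate 3. The gene with the lowest adjusted p by edgeR, 0.0084, had 12773 bases and held 34.6 to 54.9 CPM at 5 weeks and 65.8 to 73.4 CPM at 10 weeks. Its 7-week libraries held 66.2, 67.1, 38.9, 58.3 and 63.0 CPM, and its 14-week libraries 45.01 to 63.8 CPM.

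Between 14 and 10 weeks, edgeR called 0 of the 118 genes lower at 14 weeks and 0.0% of all genes. In that direction 48 of the 118 had an unadjusted p under 0.05 by edgeR, against 379 of all 19474 genes tested. The choice used this contrast, so nothing is read from the counts. DESeq2 called 3, against 0.0514% of all genes, and limma-voom 0, against 0.0%. No member was called higher at 14 weeks, against 0.0976% of all genes. The median log2 fold change was -0.46 over the members, with a range of -1.31 to -0.13, and 0.00 over all genes. Fits of only these 2 ages by edgeR called 4 members, against 0.0368% of all genes. The fit without 5-week replicates 4 and 5 and 7-week replicate 3 called 14, against 0.112% of all genes.

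The comparisons that leave out 10 weeks gave no calls by edgeR among the members. Each shares 5-week or 14-week libraries with the choice of genes, so the counts are a description. Between 7 and 5 weeks the members' median log2 fold change was 0.25, and 106 of 118 were above 0, against 49.4% of all genes. In that direction 11 members had an unadjusted p under 0.05 by edgeR, against 725 of all 19474 genes tested. Of all genes, 0.0154% were called higher and 0.0154% lower. Between 14 and 7 weeks the median was -0.16, with 96 of 118 below 0, against 49.7% of all genes. Of all genes, 1.45% were called higher and 1.04% lower. By edgeR, 5 members had an unadjusted p under 0.05 in the lower direction, against 1576 of all genes. In the higher direction it was 3 members, against 1831 of all genes. Between 14 and 5 weeks the median was 0.10, with 92 of 118 above 0, against 50.4% of all genes. Of all genes, 1.0% were called higher and 1.47% lower. By edgeR, 2 members had an unadjusted p under 0.05, both higher at 14 weeks, against 1524 of all genes in that direction. DESeq2 called 1, 2 and 1 members in these comparisons, in the same order, against 1.55%, 5.47% and 6.02% of all genes. Without 7-week replicate 3 edgeR called 6, 5 and 2, against 1.28%, 3.91% and 6.11% of all genes. The test over the 4 ages includes the libraries used in the choice, so nothing is read from its counts. It called 16 of the 118 genes (13.6%), against 7.19% of all genes, and 51 without 7-week replicate 3, against 13.4% of all genes. It called 4 to 10 when 5-week replicates 1 or 3, 7-week replicates 2 or 4, any 10-week library or 14-week replicates 1, 2, 3 or 4 were left out, with 3.67% to 6.84% of all genes called.

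The low level in 7-week replicate 3 was spread over much of the list. Set against the median of the remaining 4 libraries of 7 weeks, it was more than 2-fold lower in 67 of the 118 genes (56.8%), against 14.4% of all genes, and more than 4-fold lower in 37, against 5.07%. It was the lowest of all 20 libraries in 92 genes (77.97%), against 28.3% of all genes. The deviation ran from -5.05 on the log2 scale, in the member with the highest level per length, to 0.82.

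Part of the genes low in 7-week replicate 3 were also low in 14-week replicate 5. There, 32 of the 118 genes (27.1%) were more than 2-fold below the other 14-week libraries, against 4.36% of all genes, and all 32 were among the 67 low in 7-week replicate 3. In 5-week replicate 5, 12 genes (10.2%) were more than 2-fold low, against 2.22% of all genes, and 10 genes were low in all 3 libraries. The 5-week replicate 5 had the lowest total count of the study, 12004412. It was the highest of its age in 43.9% of all genes and in 14.4% of the members. Across the 118 genes, the deviations of 7-week replicate 3 and 14-week replicate 5 had a Pearson r of 0.87, against 0.58 across all genes, and those of 7-week replicate 3 and 5-week replicate 5 one of 0.81, against 0.51. These correlations are across genes, which are not independent replicates. Low 14-week and low 5-week libraries favour entry to the list, and the share of this in the overlap was not tested.

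**Figure D4:**
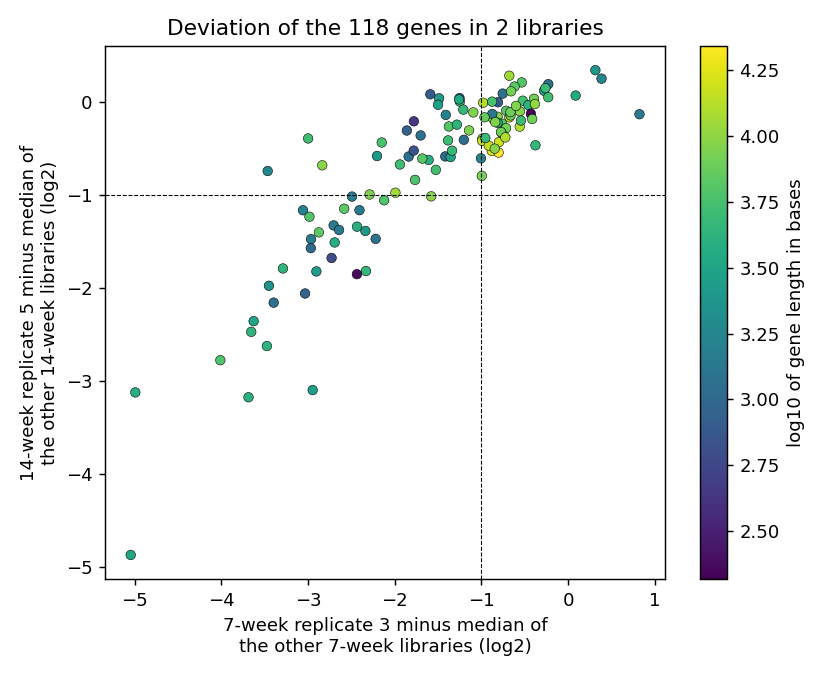
Each point is 1 of the 118 genes, placed by its deviation in 7-week replicate 3 (x axis) and in 14-week replicate 5 (y axis), each on the log2 scale and against the median of the 4 remaining libraries of that age, and coloured by log10 of the gene length in bases. Dashed lines mark 2-fold below; the 32 genes below the horizontal line are all left of the vertical line, and long genes gather near the upper right.

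The 10-week-high genes were long. Their lengths, solved from the 2 deposited tables, had a median of 4729 bases with a range of 208 to 21957, against a median of 2778.5 bases over all genes with a mean of at least 1 CPM. The genes of the mirrored rule, which are low at 10 weeks and number 118 as well, had a median of 2307.5 bases. Of the members, 80 were longer than the median of all genes, against 51 of the genes low at 10 weeks. The longest of 10 equal groups of all genes by length, above 7167.9 bases, held 34 of the members (28.8%) and 1 of the genes low at 10 weeks.

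**Figure D5:**
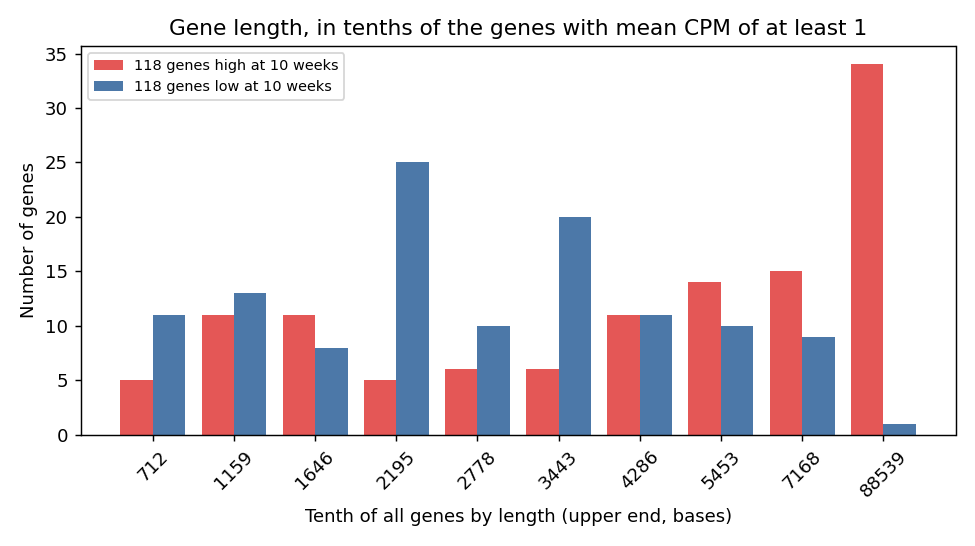
Number of genes (y axis) in each of 10 equal groups of the genes with a mean of at least 1 CPM, ordered by length with the upper end of each group in bases (x axis), for the 118 genes high and the 118 genes low at 10 weeks. The last group holds 34 of the genes high at 10 weeks and 1 of the genes low at 10 weeks.

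Length also went with the behaviour of 7-week replicate 3 within the list, in the direction opposite to that over all genes. The deviation of this library had a Spearman rank correlation with length of 0.34 over the members and -0.23 over all genes. All genes of the longest group had a median deviation of -0.54 there on the log2 scale. The 67 members that were more than 2-fold low there had a median length of 3210 bases, and the other 51 a median of 7799 bases. Of the 34 members in the longest group, 6 were low in 7-week replicate 3 and 1 in 14-week replicate 5, against 61 and 31 of the 84 shorter members. Of all genes in the longest group, 16.4% were low in 7-week replicate 3 and 5.39% in 14-week replicate 5, against 17.6% and 2.94% of the members there. All genes of the longest group, members or not, stood at -0.23 to -0.08 in the 5-week libraries on the scale relative to 10 weeks. They stood at -0.56 to 0.03 in the 7-week libraries and at -0.21 to 0.01 in the 14-week libraries. The part of length in the levels at each age was not tested.

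Per length, the members were at a middle level. Their mean RPKM, computed with each library's own total, had a median of 10.1 with a range of 0.605 to 75.3, against 8.35 over all genes and 3.22 over the genes low at 10 weeks. In CPM, the measure of the choice, they were higher, with a median of 45.3 against 20.6 over all genes and 5.33 over the genes low at 10 weeks. How far length and level in CPM go together in the list was not tested. In the 5-week libraries, replicate 2 was the highest of its age in 72 of the 118 genes (61.0%), against 12.5% of all genes. It was also the library that most often failed to lie below the 10-week range. A single 5-week library that fails is the highest of its age by definition, so the 2 counts are not independent.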

How the data were processed

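The deposited counts are raw read counts per gene identifier, whole numbers with totals of 12.0 to 30.7 M reads a library (M, mega). The submitters' processing notes name featureCounts 1.4.6-p4, STAR 2.4.1d and CASAVA 1.8.2, and libraries were made with a TruSeq v2 kit per the labels' protocols. No source used here gives the genome build, the annotation or the strand setting, so reads of overlapping genes and near-identical copies may be split or shared.

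The RPKM values deposited by the authors were used only to solve gene lengths. They are given back within 0.0011 in 99.99% of cases when the library totals are applied in a cycle of 25 down each column, and in 4.38% with each library's own total, so they are not comparable between libraries.

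The counts went into edgeR 4.0.16 under R 4.3.3. A robust quasi-likelihood model with 1 mean per age was fitted to all 20 libraries after a filterByExpr filter by age and TMM scaling, and p-values were adjusted by Benjamini-Hochberg over 19474 genes. Each standard error by edgeR was taken as the absolute log2 fold change divided by the square root of its F statistic. The code was tested on simulated data. Alternatives were DESeq2 1.42.0, limma-voom (limma 3.58.1), other scaling and filters, fits of only the ages compared, other forms of the choice of genes and leaving out libraries. Leaving out 7-week replicate 3 with 14-week replicate 5 was added after seeing the data. Replicate numbers follow accession order.

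The members and the gene lists were chosen with earlier results of these data known. Gene lists and markers needed gene names and were not used. Named identifiers are the 2 members with the largest log2 fold change from 5 to 10 weeks and the 2 others with the largest fall from 10 to 14 weeks, among members with a mean of at least 5 CPM; other members are given by their place in the list. Medians per library used log2(CPM + 0.5).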

Additional observations from a re-analysis of the deposited data

Results flagged for a closer look

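A library that stood far from the other 4 of its age, by Dixon's criterion at the 95% level, was found for the 6 values given here. Chance alone gives about 1 in 20 groups. The number of groups screened for these 6 values is not stated, so this rate cannot be set against the 6. By the same criterion, 7-week replicate 3 was flagged low in 60 of the 118 genes (50.8%). Over all genes it was flagged low in 1835 (10.2%) and high in 1861. The 14-week replicate 5 was flagged low in 33 of the 118 genes, against 1.51% of all genes. Low 14-week libraries favour entry to the list, so these counts are a description. The median level of the 118 genes relative to 10 weeks was -1.455 on the log2 scale in 7-week replicate 3 and -0.7257 in 14-week replicate 5, both far below the rest of their ages. For Nfu_g_1_020007 the same libraries held 2.08 and 5.788 CPM. For Nfu_g_1_013141 they held 1.109 and 2.17 CPM. The cause of the low values in these libraries was not tested.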

How the results depend on the processing

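The list held 118 genes, and 66 when all 5 libraries of 5 weeks had to lie below. Other scalings, floors of 0.1 and 5 CPM and leaving out several libraries at once gave 81 to 160. Without 5-week replicates 4 and 5 and 7-week replicate 3, all remaining 5-week libraries had to lie below, so that form of the choice differs. Leaving out 1 library gave 114 to 255 members, namely 255 on omitting 10-week replicate 4, 209 for 10-week replicate 5 and 218 for 14-week replicate 4. Of the 118 genes, as few as 104 were still on the list when 1 library was left out. Without a 10-week or 14-week library the order asked for is looser, and without a 5-week library 1 of those left could still fail. Longer lists are therefore in part fixed in advance. Calls are by edgeR unless stated, percentages are the shares of all genes called in the same fit, and the cause of each shift was not tested. Every comparison shares libraries with the choice of genes, so the counts are a description. Fits of only the ages compared gave 48 members higher at 10 than at 5 weeks (4.39%), 4 lower at 14 than at 10 weeks (0.0368%) and 2 higher at 10 than at 7 weeks (0.121%). DESeq2 gave 3 lower at 14 than at 10 weeks, 13 higher at 10 than at 7 weeks, 1 between 7 and 5 weeks, 2 between 14 and 7 weeks, 1 between 14 and 5 weeks and 27 over the 4 ages. Of all genes, DESeq2 called 0.0514%, 2.31%, 1.55%, 5.47%, 6.02% and 14.3% in these comparisons. Without 5-week replicates 4 and 5 and 7-week replicate 3 together the counts in that order, starting with 10 against 5 weeks, were 41, 14, 13, 2, 29, 3 and 65. The shares of all genes were 3.74%, 0.112%, 2.56%, 0.475%, 9.78%, 6.15% and 15.1%. Without 7-week replicate 3 and 14-week replicate 5 together the counts were 81 (10 against 5 weeks), 37 (7 against 5), 1 (14 against 7), 7 (14 against 5) and 71 over the 4 ages. The shares of all genes were 7.13%, 3.58%, 2.73%, 6.88% and 14.8%. Leaving out 1 library gave 5 to 57 members for 10 against 5 weeks (0.459% to 5.21%), 0 to 1 for 14 against 10 (0.0% to 0.0102%) and 2 to 10 for 10 against 7 (0.153% to 1.55%). It gave 0 to 6 for 7 against 5 (0.0204% to 1.28%) and 0 to 5 for 14 against 7 (0.678% to 3.91%). For 14 against 5 it gave 0 to 2 (0.419% to 6.11%), and over the 4 ages 4 to 51 (3.67% to 13.4%). Some small log2 fold changes turned sign. For Nfu_g_1_022606 limma-voom gave -0.020 from 5 to 7 weeks and -0.24 from 5 to 14 weeks, and leaving out 1 library gave -0.44 to 0.14 from 7 to 14 weeks. For Nfu_g_1_010894 it was 0.13 from 5 to 7 weeks without those 3 libraries, and -0.19 to 0.15 (5 to 7 weeks) and -0.033 to 0.31 (5 to 14 weeks) without 1 library. From 7 to 14 weeks, Nfu_g_1_020007 had -0.18 without those 3 libraries and -0.17 to 0.29 without 1, and Nfu_g_1_013141 had -0.41 to 0.058 without 1. No paired analysis was possible because replicate numbers follow accession order and pair nothing. Genes with few reads, such as a library with 1 read, have wide counting error.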
